A study of Mus musculus with 6 samples.

Results

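Oxidative phosphorylation is the production of ATP by the inner mitochondrial membrane, and the genes for its machinery were compared here in the trigeminal ganglion of mice, which houses sensory neurons of the head. The members were the protein-coding genes of the table whose symbols begin with Ndufa, Ndufb, Ndufc, Ndufs or Ndufv (complex I), Uqcr (complex III), Cox4 to Cox8 (complex IV) or Atp5 (complex V), with Sdha to Sdhd (complex II). This symbol rule, which uses no measured value, found 92 of 17524 genes: 48 of complex I, 4 of complex II, 8 of complex III, 15 of complex IV and 17 of complex V. Because it works on symbols, it also takes in 8 assembly factors of complex I (Ndufaf), which build the enzyme but are not part of it. All 92 members passed the filter on low values.

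The ganglia came from wild-type (WT) mice, 3 libraries from a vehicle group and 3 from a group given NTG, which in headache research usually means nitroglycerin, known to release nitric oxide. The sources used here do not give the dose, the schedule, the vehicle or the animals' age and sex, and nothing says whether a library is 1 animal or a pool. P-values therefore measure only the spread between these libraries. Messenger RNA was enriched on poly-T beads before sequencing, and the deposited values are read counts divided by a size factor per library, called normalised reads below.

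As background, complex I (NADH dehydrogenase) and complex II (succinate dehydrogenase) pass electrons to ubiquinone, complex III (cytochrome bc1) passes them on to cytochrome c, and complex IV (cytochrome c oxidase) passes them to oxygen. Complexes I, III and IV pump protons while they do so, and complex V (ATP synthase) lets the protons flow back to make ATP. Complexes I, III, IV and V also hold a few subunits encoded in mitochondrial DNA, which were not analysed here, and sensory neurons depend on this pathway to power ion pumping along very long axons. Most nuclear-encoded subunits are small accessory proteins around a core that carries out the chemistry.

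In depth, the 3 vehicle libraries totalled 18813027, 20191300 and 18825239 recovered reads and the 3 NTG libraries 19293926, 19248592 and 23774244, so that a count of 3 reads equalled 2.60 to 3.30 normalised reads, counting error only. The first principal component of all genes carried 36.5% of the variance and separated the groups. The tissue label held against its markers, since all 8 neuron, 4 satellite glia and 5 Schwann cell markers were present in every library. The summed level of the neuron markers ran from 142825 to 145330 in vehicle and from 133579 to 142477 in NTG, with 2 of 8 lower and 1 higher by the test. That of the satellite glia markers ran from 87968 to 92173 in vehicle and from 75454 to 81178 in NTG, with 2 of 4 lower and 1 higher. With 1 library left out, 2 to 3 of the neuron markers were lower and 0 to 1 higher. For the satellite glia markers 2 were lower in each such fit and 0 to 1 higher. The summed level of the Schwann cell markers overlapped between groups (289802 to 316189 in vehicle and 274787 to 298364 in NTG). By the test 2 of these 5 were lower and 1 higher, and with 1 library left out 0 to 1 were lower and 0 to 2 higher. The part of these shifts in the results below was not tested, and in bulk tissue fewer cells of a type and less RNA per cell cannot be told apart.

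Among the 92 members 34 fell, 6 rose and 52 did not pass, by limma on log2(value + 1) with Benjamini-Hochberg adjusted p under 0.05 over all 17475 genes tested. Over all genes 13.5% fell and 12.3% rose, so the share of members that fell (37.0%) was above the background and the share that rose (6.52%) below it. Without NTG replicate 2 the rises numbered 3. The median log2 fold change was -0.11 for the members and 0.00 for all genes, and 64 of 92 members lay below 0. The members' changes were modest, from -0.81 to 0.30 on the log2 scale. In 36 members all 3 NTG values were below all 3 vehicle values, and in 8 all were above, beside 20.0% and 19.7% of all genes. Tested against a minimum fold of 1.2, 9 members fell and 0 rose, beside 1.35% and 0.441% of all genes, and none rose at an unadjusted p under 0.05 in that test.

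The changes over the whole table followed the GC content and length of transcripts, so the same counts were taken after each library's smooth trend over both had been removed. This left 822 falls (5.05%) and 670 rises (4.12%) among 16278 genes. Of the 90 members with a known transcript 23 fell and 3 rose, at a median of -0.04. These 23 included 21 of the 34 members that fell before, and the 3 rises included 1 of the 6 that rose before, Atp5h. Values after removal of the trends stand beside most of the members described below.

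**Figure D1:**
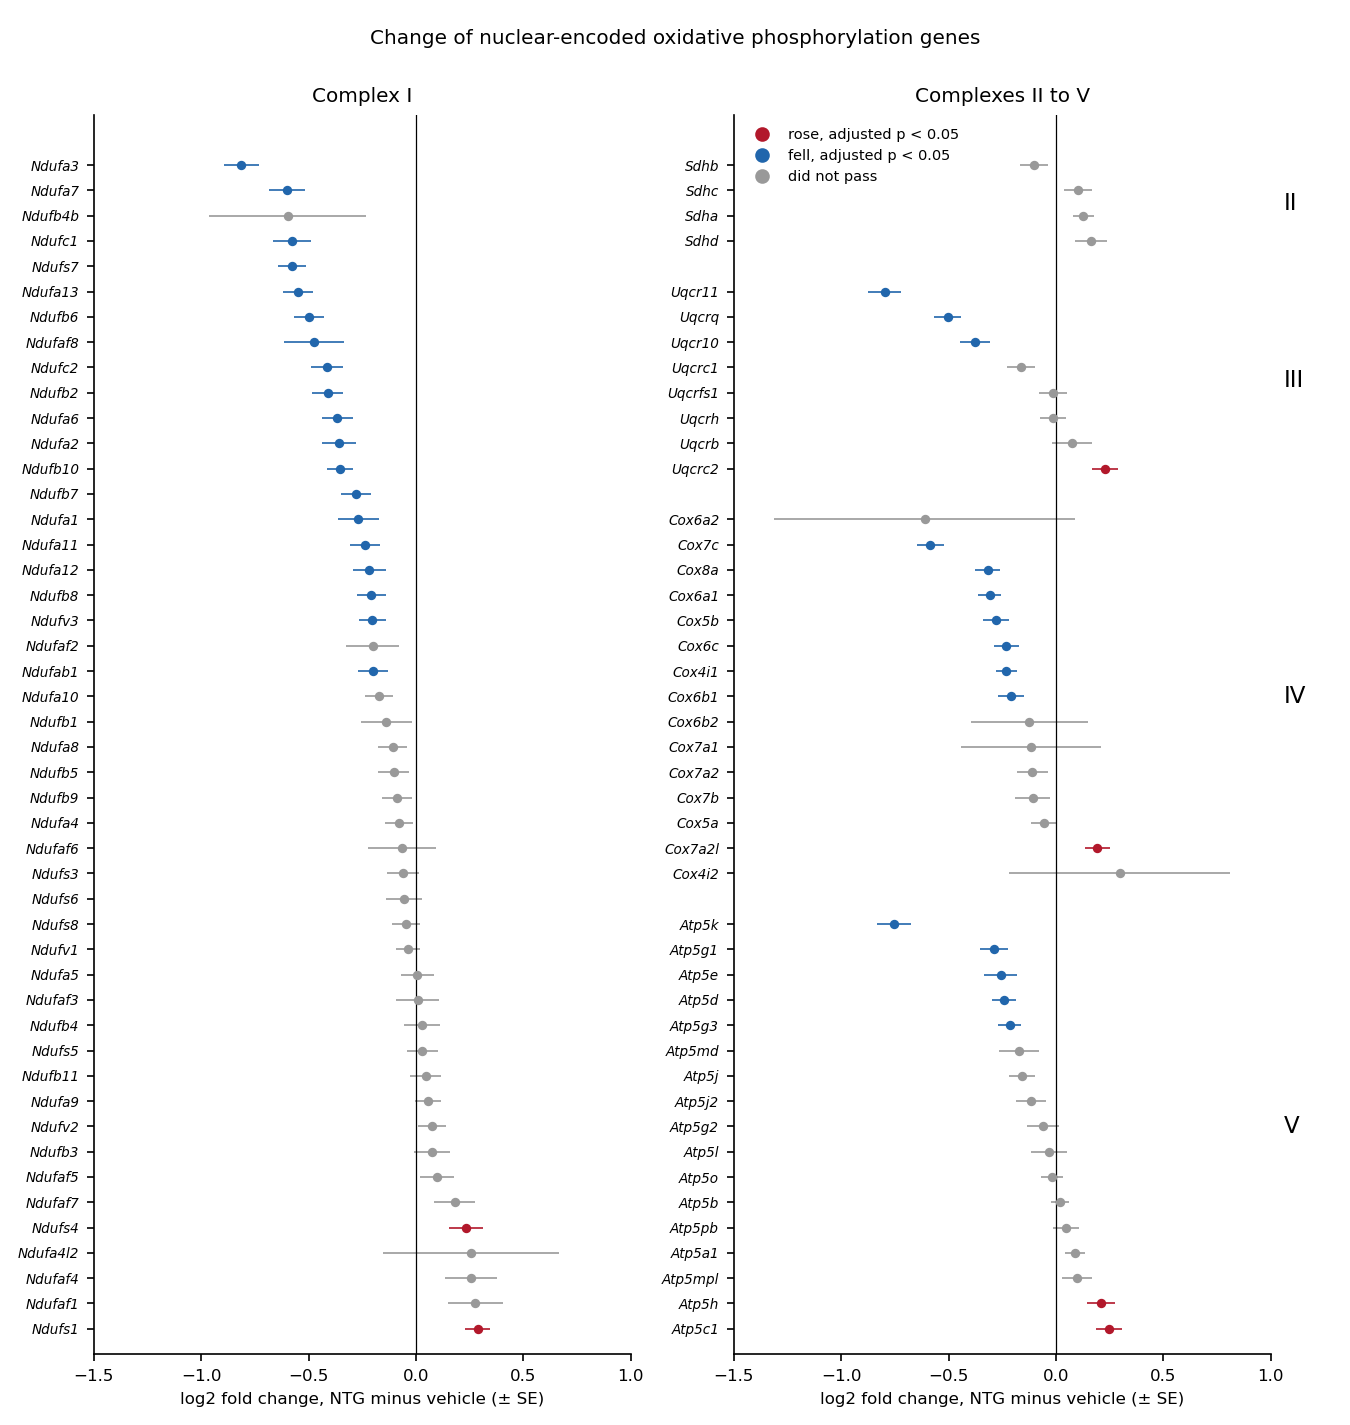
Log2 fold change of the members, all but 1 drawn (NTG minus vehicle, points, with bars of ± 1 SE; 3 libraries per group), with complex I on the left and complexes II to V on the right. Blue marks the 34 members that fell, red the 6 that rose and grey those that did not pass at a limma adjusted p of 0.05; the points run from -0.81 (Ndufa3) to 0.30 (Cox4i2).

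Promoter sequence gives a first view of what these genes share apart from function. As background, NRF1 and the ETS factor GABP (NRF2) are known to drive many nuclear respiratory genes, and YY1 is known to act on some of them. RefSeq (GRCm38.p6) gave a promoter window, 250 bases before to 50 after the gene start, for 76 of the 92 members. On either strand the NRF1 motif (GCGC, any base, then TGCGC) was in 19 of them (25.0%), against 5.19% of all 27025 promoters and 10.1% of those of protein-coding genes in the table. ETS letters (CCGGAAG) were in 19 members (25.0%), against 9.93% and 17.5%. The YY1 letters AAGATGGCG were in 8 members (10.5%), against 1.64% and 3.02%.

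At least 1 of these motifs was in 14 of the 30 members that fell, 3 of the 4 that rose and 22 of the 42 that did not pass. By motif, ETS letters were in 30.0% of members that fell and 21.4% of those that did not pass, and NRF1 letters in 16.7% and 28.6%. These differences were not tested. A match is a run of letters, not a shown binding site. The 170 bases just before the start of 4 members that moved in opposite directions or by different amounts are printed from RefSeq (GRCm38.p6, minus strand of the chromosome, 5′ to 3′), with NRF1 and ETS matches in capitals. They are Atp5k (chr5:108434400-108434569), Uqcr11 (chr10:80406822-80406991), Cox6a1 (chr5:115348959-115349128) and Atp5h (chr11:115419920-115420089).
Atp5k: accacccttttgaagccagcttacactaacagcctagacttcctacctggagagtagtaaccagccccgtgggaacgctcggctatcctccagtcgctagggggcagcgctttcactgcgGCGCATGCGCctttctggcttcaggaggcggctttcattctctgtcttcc
Uqcr11: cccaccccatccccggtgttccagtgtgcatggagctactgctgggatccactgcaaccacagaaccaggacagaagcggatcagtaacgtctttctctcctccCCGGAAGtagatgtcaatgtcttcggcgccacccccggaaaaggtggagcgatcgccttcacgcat
Cox6a1: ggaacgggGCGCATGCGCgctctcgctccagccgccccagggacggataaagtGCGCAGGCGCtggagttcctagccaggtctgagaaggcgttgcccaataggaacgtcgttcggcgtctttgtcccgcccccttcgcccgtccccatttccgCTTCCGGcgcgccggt
Atp5h: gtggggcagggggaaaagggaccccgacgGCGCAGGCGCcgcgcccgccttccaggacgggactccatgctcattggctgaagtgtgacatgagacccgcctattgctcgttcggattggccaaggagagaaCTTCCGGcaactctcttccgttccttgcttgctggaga
Atp5k, the subunit e gene of ATP synthase, carried an NRF1 match whose first base was 50 bases before the start, and fell by 40.7%. Atp5h, the gene for subunit d, carried an NRF1 match and a reverse-strand ETS match and rose by 15.6%. Cox6a1 carried both kinds of match as well and fell by 19.2%, a fall that was lost once the trends were removed (0.00, limma adjusted p = 0.993).

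In complex I 19 of 48 genes fell and 2 rose, at a median log2 fold change of -0.11. The falls lay among the accessory subunits: 17 of 31 fell and 1 rose (median -0.21), whereas 1 of the 7 core subunits fell and 1 rose (median -0.05). Without NTG replicate 2 the accessory falls numbered 11. With the GC and length trends removed, 12 of 29 accessory subunits fell and 0 rose, and 1 of 7 core subunits fell and 2 rose. By symbol series, 9 of 13 Ndufa subunits fell, as did 5 of 12 Ndufb and both Ndufc subunits, and 0 of these 27 rose by limma, edgeR or DESeq2 or at an unadjusted p under 0.05. Without NTG replicate 1 or 2 the Ndufa falls numbered 5. The difference between accessory and core subunits was not tested.

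Ndufa3 (chr7:3617347-3620165, plus strand), a small membrane accessory subunit, had 998, 1129 and 1108 normalised reads in vehicle and 598, 587 and 655 in NTG. The groups did not overlap, and the mean fell by 43.1% (-0.81 ± 0.08, limma adjusted p = 1.94e-06), the lowest log2 fold change of any member. It was -0.75 after removal of the trends (limma adjusted p = 7.26e-07).

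Ndufa13 (chr8:69894163-69902558, minus strand), also called GRIM-19 and known both as an accessory subunit and as a cell death regulator, had 2201, 2278 and 2492 normalised reads in vehicle and 1512, 1512 and 1745 in NTG. The NTG values were all lower, and the mean fell by 31.6% (-0.55 ± 0.07, limma adjusted p = 1.58e-05), and -0.24 remained after removal of the trends (limma adjusted p = 0.00765). Ndufa13 overlaps Tssk6 on the opposite strand, whose level was 0.0109 times its own.

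Several more accessory subunits, named after their values were seen, fell by 22.5% or more with no overlap between groups. Ndufa7 had 1166, 1205 and 1419 normalised reads in vehicle and 812, 770.0 and 911 in NTG (-0.60 ± 0.08, limma adjusted p = 4.3e-05). Ndufb6 had 1417, 1343 and 1422 normalised reads in vehicle and 931, 971 and 1059 in NTG (-0.50 ± 0.07, limma adjusted p = 4.55e-05). Ndufc1 had 677, 669 and 642 normalised reads in vehicle and 474, 418 and 441 in NTG (-0.58 ± 0.09, limma adjusted p = 8.55e-05). All 3 passed in each of the 6 fits that left out 1 library. Ndufc2, whose partner in the membrane arm is Ndufc1, had 1577, 1632 and 1766 normalised reads in vehicle and 1204, 1160.4 and 1372 in NTG (-0.42 ± 0.07, limma adjusted p = 0.00034). Ndufb2 and Ndufa6 went from 1315 ± 70.7 to 989 ± 65.8 and from 1396 ± 81.9 to 1082 ± 69.2 normalised reads (mean ± SD, n = 3). These 6 genes still fell once the trends were removed, with log2 fold changes of -0.40, -0.55, -0.48, -0.46, -0.23 and -0.23.

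Several smaller falls were lost when 1 library was left out. Ndufab1, the mitochondrial acyl carrier protein that also serves fatty acid synthesis, had 1273, 1115 and 1171 normalised reads in vehicle and 993, 1041 and 1059 in NTG (-0.20 ± 0.07, limma adjusted p = 0.0458). Leaving out NTG replicate 1, 2 or 3 or vehicle replicate 1 or 3 took its adjusted p to 0.16, 0.113, 0.055, 0.168 and 0.0644. Its fold change was larger once the trends were removed (-0.36, limma adjusted p = 0.000983). Ndufa1, Ndufa11, Ndufa12, Ndufb8 and Ndufv3 also lost the call when 1 of 2 to 5 libraries was left out, with adjusted p up to 0.193 (Ndufa1 without vehicle replicate 3) and 0.207 (Ndufb8 without NTG replicate 1). Their log2 fold changes lay between -0.27 (Ndufa1) and -0.20 (Ndufv3). Of these 5, Ndufa1 still fell once the trends were removed (-0.32, limma adjusted p = 0.0467). The other 4 lost the call there, with Ndufa12 at -0.20, Ndufb8 at -0.02, Ndufv3 at -0.03 and Ndufa11 turned to 0.05.

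Of the 7 core subunits of complex I 1 fell and 1 rose (14.3% each), near the 13.5% and 12.3% of all genes. Ndufs7 (chr10:80249105-80256794, plus strand) carries the iron-sulfur cluster that hands electrons to ubiquinone, and it had 2372, 2517 and 2420.3 normalised reads in vehicle and 1588, 1556 and 1763 in NTG. All NTG values were lower, and the mean fell by 32.9% (-0.58 ± 0.06, limma adjusted p = 4.79e-06), which narrowed to -0.23 after removal of the trends (limma adjusted p = 0.00578). Ndufs1 (chr1:63143592-63176822, minus strand) is the largest subunit of the enzyme and holds iron-sulfur clusters of the arm that oxidises NADH. It had 2639, 2554 and 2755 normalised reads in vehicle and 3204, 3329.7 and 3165 in NTG. All NTG values were higher, a rise of 22% (0.29 ± 0.06, limma adjusted p = 0.000893), and the value was 0.12 after removal of the trends (limma adjusted p = 0.151). Ndufs1 overlaps Ino80dos on the opposite strand, a gene that also rose but whose level was 0.0196 times that of Ndufs1.

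Other core subunits did not pass. Ndufv1, which binds NADH and the flavin, had 4155, 3877 and 4035 normalised reads in vehicle and 3745, 3895 and 4137 in NTG (-0.04 ± 0.06, limma adjusted p = 0.692). Ndufs3, Ndufs8 and Ndufv2 had log2 fold changes of -0.06, -0.05 and 0.07. Ndufv1 and Ndufs8 rose once the trends were removed (0.16 and 0.19, limma adjusted p = 0.0332 and 0.0454).

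The accessory subunit that rose was Ndufs4 (chr13:114287795-114388094, minus strand), whose loss causes Leigh-like encephalopathy in mice. It had 616, 648 and 683 normalised reads in vehicle and 730.2, 783 and 776 in NTG, with no overlap between groups (0.23 ± 0.08, limma adjusted p = 0.0357). The call was lost without NTG replicate 1, 2 or 3 (adjusted p = 0.0525, 0.147 and 0.0928) and without vehicle replicate 1 or 2 (0.101 and 0.0739). Its log2 fold change without the trends was 0.01.

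Of the 8 assembly factors 1 fell and 0 rose (median 0.05), with 2 above 0 at an unadjusted p under 0.05 and 0 rises in edgeR or DESeq2. Ndufaf8, the partner of the assembly factor Ndufaf5, had 245, 319 and 273 normalised reads in vehicle and 171, 205 and 227 in NTG (-0.47 ± 0.14, limma adjusted p = 0.0152). Without NTG replicate 1 or vehicle replicate 2 it did not pass (adjusted p = 0.107 and 0.0881), nor did it once the trends were removed (-0.29, limma adjusted p = 0.184). The other assembly factors lay between -0.20 (Ndufaf2) and 0.28 (Ndufaf1) on the log2 scale. Ndufaf1, a chaperone of the membrane arm, had 417, 277 and 316 normalised reads in vehicle and 396, 434 and 378 in NTG. The groups overlapped through vehicle replicate 1 (0.28 ± 0.13, limma adjusted p = 0.125), and without that library it passed (adjusted p = 0.00793).

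Complex II is encoded wholly in the nucleus, and none of its 4 genes passed. Limma called 0 falls and 0 rises, edgeR and DESeq2 each called 1 rise (Sdha), and at an unadjusted p under 0.05 there were 0 falls and 2 rises. Sdha (chr13:74322255-74350240, minus strand), the flavoprotein that oxidises succinate, had 6593, 6483 and 6555 normalised reads in vehicle and 7058, 7259.8 and 7143 in NTG. All 3 NTG values were above the vehicle values (0.13 ± 0.05, limma adjusted p = 0.0542). Sdhb, the iron-sulfur subunit, had 2247, 2313 and 2589 normalised reads in vehicle and 2083, 2339 and 2233 in NTG (-0.10 ± 0.07, limma adjusted p = 0.283), with overlapping groups.

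The membrane anchors of complex II did not pass either. Sdhc had 1569, 1389 and 1464 normalised reads in vehicle and 1517, 1614 and 1614 in NTG (0.10 ± 0.07, limma adjusted p = 0.282), and Sdhd had 1852, 1717 and 1862 normalised reads in vehicle and 1818, 2018 and 2272 in NTG (0.16 ± 0.07, limma adjusted p = 0.109). Both pairs of groups overlapped. Without NTG replicate 1, Sdhd passed (adjusted p = 0.0248). Without the trends the 4 values were 0.04 (Sdha), 0.04 (Sdhb), 0.02 (Sdhc) and 0.10 (Sdhd).

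In complex III 3 of 8 genes fell and 1 rose (median -0.09). The falls were 3 of the 5 small subunits. Uqcr11 (chr10:80402997-80406821, minus strand), the smallest member of the complex by coding length (168 bases), had 1892, 1894 and 2219 normalised reads in vehicle and 1075, 1103 and 1274 in NTG. The lowest vehicle value was well above the highest NTG value, and the mean fell by 42.5% (-0.80 ± 0.08, limma adjusted p = 2.06e-06; -0.47 after removal of the trends, limma adjusted p = 0.000101). Its promoter, printed above, held an ETS match.

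Uqcrq (chr11:53427922-53430831, minus strand), a small subunit that contacts cytochrome b, had 1879, 1894 and 1971 normalised reads in vehicle and 1309, 1322 and 1419 in NTG (-0.50 ± 0.06, limma adjusted p = 1.5e-05). Uqcr10, another small membrane subunit, had 1363, 1355 and 1516 normalised reads in vehicle and 1049, 1069.7 and 1143 in NTG (-0.38 ± 0.07, limma adjusted p = 0.000584). Neither pair of groups overlapped. Uqcrq kept its fall without the trends (-0.54, limma adjusted p = 3.7e-06), while Uqcr10 was at -0.15 and no longer passed (limma adjusted p = 0.176). Uqcrb and Uqcrh, the other small subunits, were at 0.07 and -0.01 and did not pass.

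Uqcrc2 (chr7:120635189-120659523, plus strand), a core protein on the matrix side, had 2536, 2462 and 2226 normalised reads in vehicle and 2725, 2842 and 2884 in NTG. All NTG values were higher (0.23 ± 0.06, limma adjusted p = 0.00925), but the call was lost without vehicle replicate 3 (adjusted p = 0.061) and after removal of the trends (0.04, limma adjusted p = 0.726). Its partner Uqcrc1 had 4019, 4290.1 and 4573 normalised reads in vehicle and 3454, 4122 and 3948 in NTG, which overlapped and did not pass (-0.16 ± 0.07, limma adjusted p = 0.0797), except without vehicle replicate 1 or NTG replicate 2 (adjusted p = 0.0332 and 0.0487). Uqcrfs1, the Rieske iron-sulfur protein that takes electrons from ubiquinol, was at -0.01 ± 0.06, limma adjusted p = 0.919.

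In complex IV 7 of 15 genes fell and 1 rose, and the median log2 fold change of -0.21 was the lowest of the 5 complexes. With the trends removed it was -0.04, and complex III was then the lowest at -0.11. None of the 15 encodes the catalytic core, which is made from mitochondrial DNA, and they include Cox7a2l, known for linking complexes III and IV. Cox7c (chr13:86044798-86046795, minus strand), a small membrane subunit, had 2333, 2274 and 2327 normalised reads in vehicle and 1573, 1457 and 1594 in NTG. The vehicle values lay within a narrow band far above the NTG values, and the mean fell by 33.3% (-0.58 ± 0.06, limma adjusted p = 2.88e-06). Removal of the trends left -0.67 (limma adjusted p = 3.93e-08), the second lowest of the members after Ndufa3.

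Cox8a (chr19:7215158-7217616, minus strand), the isoform of subunit VIII found in most tissues, had 4063, 3955 and 4111 normalised reads in vehicle and 3151, 3116 and 3469 in NTG (-0.32 ± 0.06, limma adjusted p = 0.00039). Cox6a1 (chr5:115345652-115348958, minus strand), the form of subunit VIa outside heart and muscle, had 6244, 5985 and 6224 normalised reads in vehicle and 4850.4, 4769 and 5296 in NTG (-0.31 ± 0.05, limma adjusted p = 0.000318). The groups of both were apart, yet after removal of the trends Cox8a was at -0.02 and Cox6a1 at 0.00 (limma adjusted p = 0.879 and 0.993). Cox4i1, the regulatory subunit IV, had 7786, 7655 and 8138 normalised reads in vehicle and 6587, 6563 and 6936 in NTG (-0.23 ± 0.05, limma adjusted p = 0.00185), and its value after removal was 0.02.

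Cox5b, Cox6c and Cox6b1 fell both before and after removal of the trends. Cox5b, a zinc-binding subunit on the matrix side, had 2978, 2974 and 3135 normalised reads in vehicle and 2423, 2369.8 and 2705 in NTG (-0.28 before, -0.34 after). Cox6c had 2130.3, 2146 and 2181 normalised reads in vehicle and 1830.2, 1816 and 1851 in NTG (-0.23 and -0.26). Cox6b1, which links the monomers of the dimer on the side of cytochrome c, had 3140.4, 3018 and 3194 normalised reads in vehicle and 2649, 2555 and 2900.1 in NTG (-0.21 and -0.17). Their limma adjusted p were 0.00216, 0.00562 and 0.0143, and Cox6b1 did not pass without vehicle replicate 3 or NTG replicate 2 (adjusted p = 0.0505 and 0.109).

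Cox7a2l (chr17:83501917-83514333, minus strand), also called SCAF1 and known for linking complexes III and IV into supercomplexes, was the member of complex IV that rose. It had 2369, 2235 and 2160.3 normalised reads in vehicle and 2576, 2559.6 and 2593 in NTG, with all NTG values higher (0.19 ± 0.06, limma adjusted p = 0.0188). Leaving out vehicle replicate 2, vehicle replicate 3 or NTG replicate 2 ended the call (adjusted p = 0.0601, 0.0783 and 0.064). Without the trends it was at 0.15 (limma adjusted p = 0.0595).

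**Figure D2:**
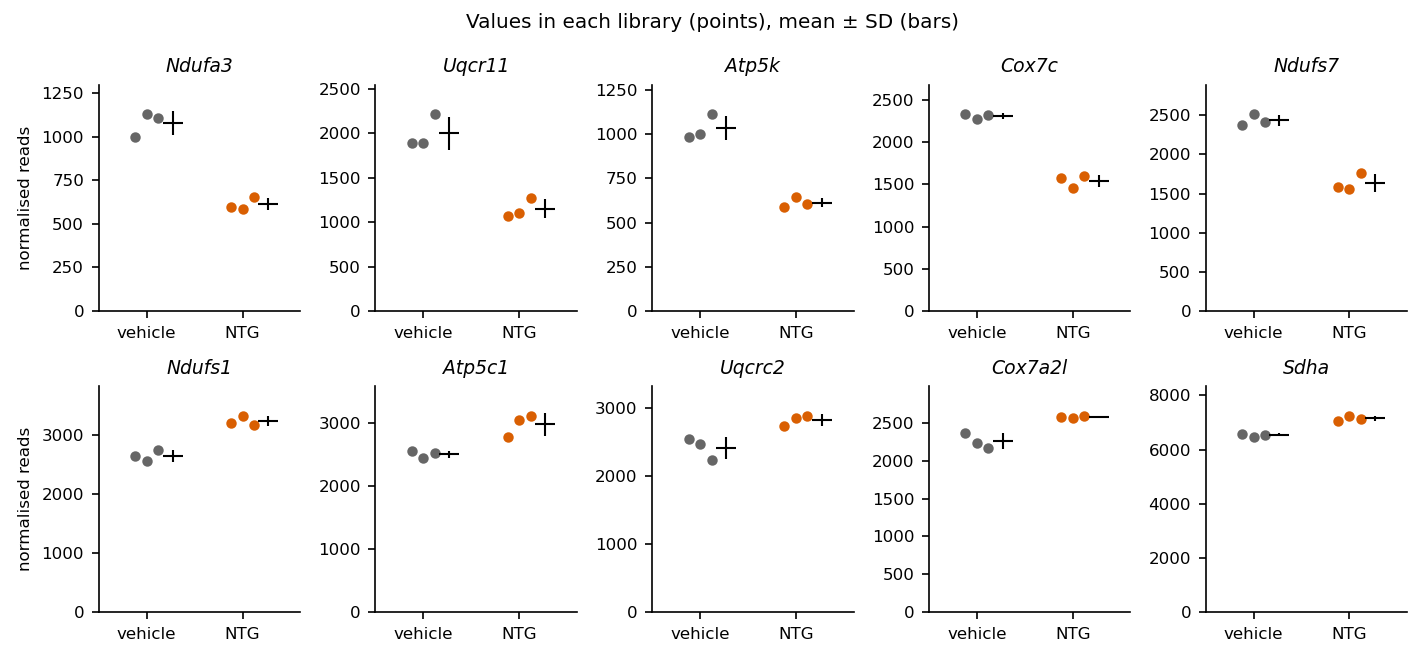
Normalised reads of 10 members in each library (points, grey vehicle and orange NTG; black crosses mark the mean ± SD, n = 3), with axes that start at 0. The upper row shows 5 members that fell, among them Ndufa3 from 998 to 1129 in vehicle and from 587 to 655 in NTG; the lower row shows 4 that rose and Sdha, which did not pass.

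Several subunits come as a ubiquitous gene and a tissue-restricted one, and the ganglion used the ubiquitous forms. Per kilobase of transcript, Cox4i1 stood at a mean of 10549.5 normalised reads in vehicle and 8987 in NTG, against 19.9 and 22.2 for Cox4i2, the form known from lung and hypoxia. Cox6a1 stood at 10772 and 8708 per kb, against 11 and 7.19 for Cox6a2, the heart and muscle form. Cox6b1 stood at 5044 and 4372, against 77.7 and 71.2 for the testis form Cox6b2. In the subunit VIIa family, Cox7a2 stood at 2698 and 2494 per kb, Cox7a2l at 2095 and 2394, and the muscle form Cox7a1 at 76.4 and 72. Cox7a2 overlaps Tmem30a on the same strand, a gene at 4.73 times its level.

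None of the low forms passed. Cox6a2 had 9.81, 7.21 and 5.51 normalised reads in vehicle and 7.33, 2.13 and 5.2 in NTG (-0.61 ± 0.70, limma adjusted p = 0.566), and NTG replicate 2 was under its 3-read value. Cox7a1 had 29.4, 30.9 and 29.7 normalised reads in vehicle and 24.1, 23.5 and 37.3 in NTG (-0.11 ± 0.33, limma adjusted p = 0.837). Cox4i2 had 9.81, 7.21 and 26.4 normalised reads in vehicle and 21, 17.1 and 10.4 in NTG, scattered as widely within vehicle as between groups (0.30 ± 0.51, limma adjusted p = 0.721), and it overlaps Bcl2l1 on the opposite strand, a gene at 128 times its level. Cox7b was at -0.11 and did not pass before removal of the trends (0.364), and fell after it (-0.35, limma adjusted p = 0.033). Cox7b2, Cox8b and Cox8c were not analysed here.

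Markers of skeletal muscle, the tissue that uses Cox6a2 and Cox7a1, were low. Of 13 markers found 7 fell and 1 (Neb) rose, while edgeR called 5 falls and DESeq2 3, and 4 fell without vehicle replicate 3. Among them Myh4, the fast myosin, went from 48.3 ± 39.0 to 5.14 ± 1.90 normalised reads. The 13 markers had a median log2 fold change of -1.17. After removal of the trends it was -0.97, and 5 fell and 0 rose. Their summed level, in which high genes weigh most, ran from 856 to 1053 in vehicle and from 808 to 904 in NTG, which overlapped. Tnnc2 and Tnnt3 were at 0 in 1 NTG library each. The sum covers only these 13 chosen genes and is not a measure of all muscle RNA. The part of muscle RNA in the members' change was not tested.

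Ndufa4 was first assigned to complex I and is now known as a subunit of complex IV. It had 3613, 3384 and 4021 normalised reads in vehicle and 3330.3, 3459.8 and 3618 in NTG, overlapping and not past the threshold (-0.08 ± 0.06, limma adjusted p = 0.391), but fell after removal of the trends (-0.23, limma adjusted p = 0.0346). Its hypoxia-induced relative Ndufa4l2 had 38.1, 11.3 and 23.1 normalised reads in vehicle and 30.4, 20.3 and 28.6 in NTG, and it overlaps Shmt2 on the opposite strand, at 16.6 times its level. Per kb, Ndufa4 stood at 6021 and Ndufa4l2 at 25.9 in vehicle.

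**Figure D3:**
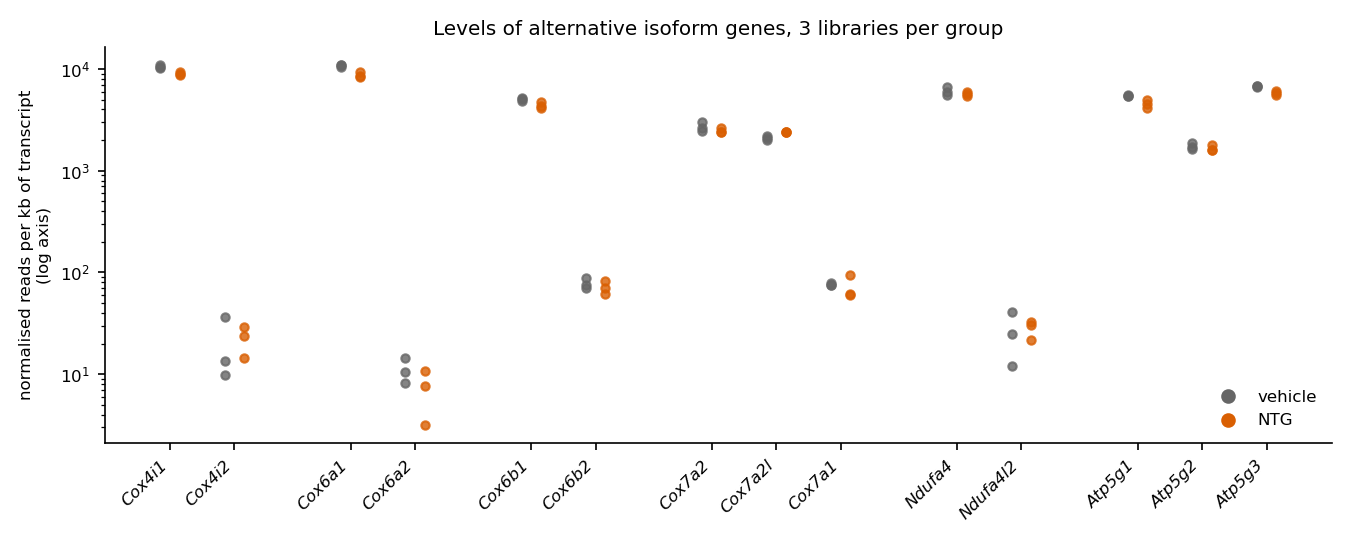
Normalised reads per kb of transcript (log axis) of alternative isoform genes in each library, grey for vehicle and orange for NTG, 3 points per group. The forms Cox4i1, Cox6a1 and Cox6b1 lie at 4135 per kb or more in every library, and Cox4i2, Cox6a2, Cox6b2, Cox7a1 and Ndufa4l2 lie below 100.

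In complex V 5 of 17 genes fell and 2 rose (median -0.06). Atp5k (chr5:108433246-108434399, minus strand) encodes subunit e, which helps ATP synthase form the dimers that bend the inner membrane, and it had 987, 1005 and 1115 normalised reads in vehicle and 591, 643 and 607 in NTG. The groups were far apart, and the mean fell by 40.7% (-0.75 ± 0.08, limma adjusted p = 2.88e-06; -0.58 after removal of the trends, limma adjusted p = 5.3e-05). The other 4 membrane accessory subunits, Atp5md, Atp5j2, Atp5l and Atp5mpl, lay between -0.17 and 0.10 and did not pass.

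The rotor ring is built from subunit c, for which 3 genes encode the same mature protein. Atp5g1 had 3268, 3333 and 3255 normalised reads in vehicle and 2455, 2689.8 and 2951 in NTG (-0.29 ± 0.06, limma adjusted p = 0.00227), and Atp5g3 had 4725, 4830.5 and 4886 normalised reads in vehicle and 3937, 4342 and 4172 in NTG (-0.21 ± 0.05, limma adjusted p = 0.00579), both without overlap. Atp5g2 had 1249.9, 1361 and 1189 normalised reads in vehicle and 1165, 1179.6 and 1298 in NTG and did not pass (-0.06 ± 0.07, limma adjusted p = 0.589). Per kb the order in vehicle was Atp5g3 (6742), Atp5g1 (5512) and Atp5g2 (1732), the same order as in NTG (5813, 4528 and 1661), with no overlap between genes within a group. The fall of Atp5g3 held without the trends (-0.21, limma adjusted p = 0.00835), Atp5g1 was at -0.06 and Atp5g2 at 0.16, neither past the threshold.

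In the F1 head the catalytic pair did not pass. Atp5b, the beta subunit that makes ATP, was the most abundant member per kb (11763 in vehicle and 11933 in NTG) and had 22712, 22477 and 22425 normalised reads in vehicle and 22133, 23129 and 23328 in NTG (0.02 ± 0.04, limma adjusted p = 0.77). Atp5a1, the alpha subunit, had 16354, 15440.4 and 15632 normalised reads in vehicle and 16267, 17106 and 17040.0 in NTG (0.09 ± 0.05, limma adjusted p = 0.164). Both pairs of groups overlapped.

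The central stalk of F1 split by subunit. Atp5c1 (chr2:10056030-10080510, minus strand), the gamma subunit that turns within the head, had 2549, 2445 and 2528 normalised reads in vehicle and 2774, 3049 and 3118 in NTG, all NTG values higher (0.25 ± 0.06, limma adjusted p = 0.0043). Atp5d, the delta subunit at its foot, had 4885, 5144 and 4969 normalised reads in vehicle and 3953, 4339 and 4391 in NTG, all NTG values lower (-0.24 ± 0.06, limma adjusted p = 0.00281). Atp5e, the epsilon subunit beside it, had 1257, 1308 and 1550.0 normalised reads in vehicle and 1134, 1149 and 1146 in NTG, also lower (-0.26 ± 0.08, limma adjusted p = 0.0163). None of the 3 passed once the trends were removed, at 0.14, 0.10 and -0.06, and the sign of Atp5d turned. Atp5d overlaps Cbarp on the opposite strand, a gene that fell and stood at 0.727 times its level. Atp5e did not pass without vehicle replicate 3 or NTG replicate 2 (adjusted p = 0.108 and 0.052).

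Of the 4 peripheral stalk subunits, which hold the head still, 1 rose and 0 fell. Atp5h (chr11:115415691-115419919, minus strand), subunit d, had 2501, 2154 and 2391 normalised reads in vehicle and 2602, 2717 and 2823 in NTG (0.21 ± 0.06, limma adjusted p = 0.019). All NTG values were higher, and it was the rise that remained after removal of the trends (0.23, limma adjusted p = 0.0143). It did not pass without vehicle replicate 2, NTG replicate 2 or NTG replicate 3 (adjusted p = 0.127, 0.0664 and 0.0654). Atp5j, coupling factor 6, had 2256, 2279 and 2323 normalised reads in vehicle and 1932, 2040.3 and 2184 in NTG, all lower in NTG but not past the threshold (-0.16 ± 0.06, limma adjusted p = 0.0662) unless NTG replicate 3 was left out (adjusted p = 0.0275). Atp5o and Atp5pb were at -0.02 and 0.05.

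The members' mean deviation from the vehicle mean summarises each library on the log2 scale. Over all 92 members it was -0.01, -0.05 and 0.05 in vehicle replicates 1 to 3 and -0.17, -0.17 and -0.08 in NTG replicates 1 to 3. Every NTG library was below every vehicle library, and NTG replicate 3 was the nearest to vehicle. After removal of the trends the NTG values were -0.13, -0.08 and -0.04, and that of NTG replicate 3 lay above vehicle replicate 2 (-0.05).

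By complex the libraries differed in their order. Complex IV stood at -0.14, -0.28 and -0.14 in NTG, and complex III at -0.24, -0.20 and -0.14. Complex V stood at -0.16, -0.08 and -0.04, and complex II at -0.01, 0.10 and 0.12, so complexes II, III and V were lowest in NTG replicate 1 and complex IV in NTG replicate 2. The order given for complex IV leans on low genes, which weigh as much as others in these means. In NTG replicates 1 and 2 Cox6a2 was at 0.00 and -1.41, Cox6b2 at 0.07 and -0.32, Cox4i2 at 0.71 and 0.43 and Cox7a1 at -0.31 and -0.34. The -1.41 of Cox6a2 rests on 2.13 normalised reads, under its 3-read value. The members' share of all normalised reads was 1.01%, 0.981% and 1.02% in vehicle and 0.926%, 0.945% and 0.976% in NTG, without overlap.

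**Figure D4:**
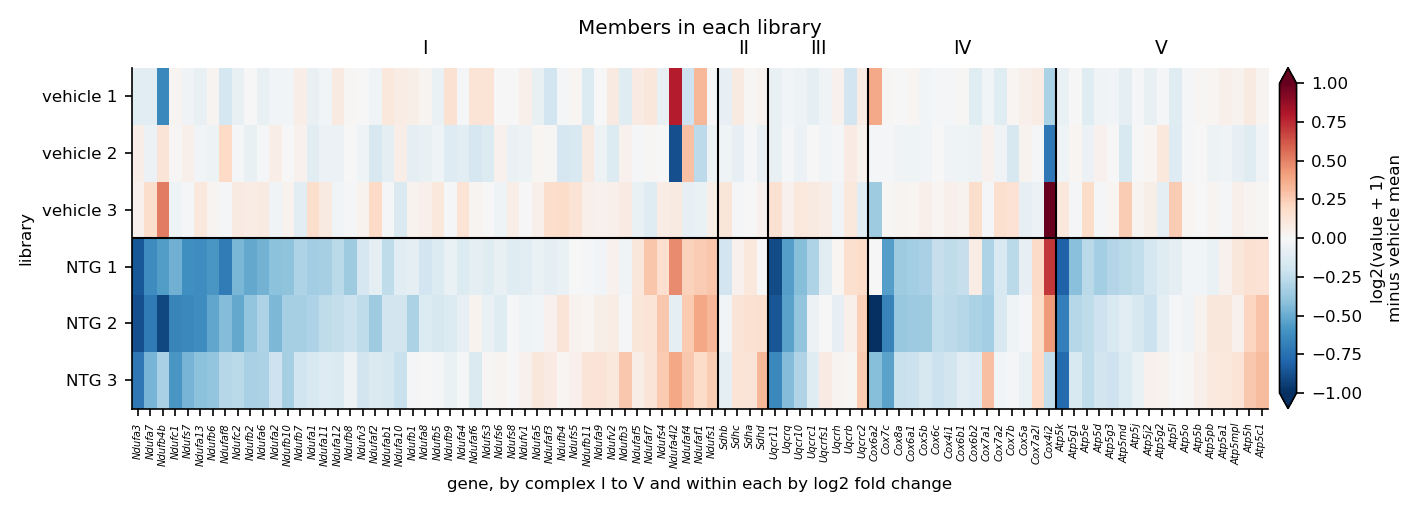
Log2(value + 1) of each member in each library minus its vehicle mean, from blue (-1, lower) to red (1, higher), with the genes (all but 1 drawn) ordered by complex I to V and within each by log2 fold change. The left ends of complexes I, III, IV and V are blue in all 3 NTG libraries, except that Cox6a2, drawn first in complex IV, is at 0.00 in NTG replicate 1. Complex II is close to 0, and the scattered strong colours belong to low genes such as Cox4i2, Cox6a2 and Ndufa4l2.

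The members that fell tended to be short. The members' median coding length was 430.5 bases and their median transcript length 772 bases, against 1401 and 2803 over all genes, and their median GC content was 51.7% against 50.5%. The bands that follow were chosen after the data were seen. Of 25 members with up to 300 coding bases 14 fell and 0 rose (median -0.26). For those 25 members edgeR and DESeq2 called 0 rises as well, and 0 had a rise at an unadjusted p under 0.05. Among 271 other protein-coding genes of that length 22.1% fell and 6.64% rose.

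Members of 300 to 450 coding bases numbered 24, of which 13 fell and 1 rose, against 15.6% and 9.65% of 653 other genes. Beyond 450 bases 7 of 41 members fell and 5 rose, close to the 13.7% and 14.4% of 13843 other genes. The 5 long members that rose were Ndufs1, Ndufs4, Uqcrc2, Atp5c1 and Atp5h. After removal of the trends 12 of the 25 short members fell and 0 rose (median -0.26), against 15.5% and 2.95% of the other genes of that length. In the longest band 3 of 41 fell and 3 rose.

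Across the 90 members with a known transcript, Spearman's rho of the log2 fold change was 0.48 with coding length, 0.52 with transcript length and -0.42 with GC content. After removal of the trends it was 0.46 with coding length, 0.32 with transcript length and 0.28 with GC content. The members' changes thus still went with GC content after removal, in the opposite direction, and the part of this in calls lost or gained was not tested. These are descriptions across genes of the same 6 libraries, which are not independent replicates. By library, the short members stood at -0.31, -0.39 and -0.21 in NTG and between -0.06 and 0.06 in vehicle, and the members beyond 450 bases at -0.04, 0.00 and 0.02 in NTG and between -0.05 and 0.04 in vehicle.

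**Figure D5:**
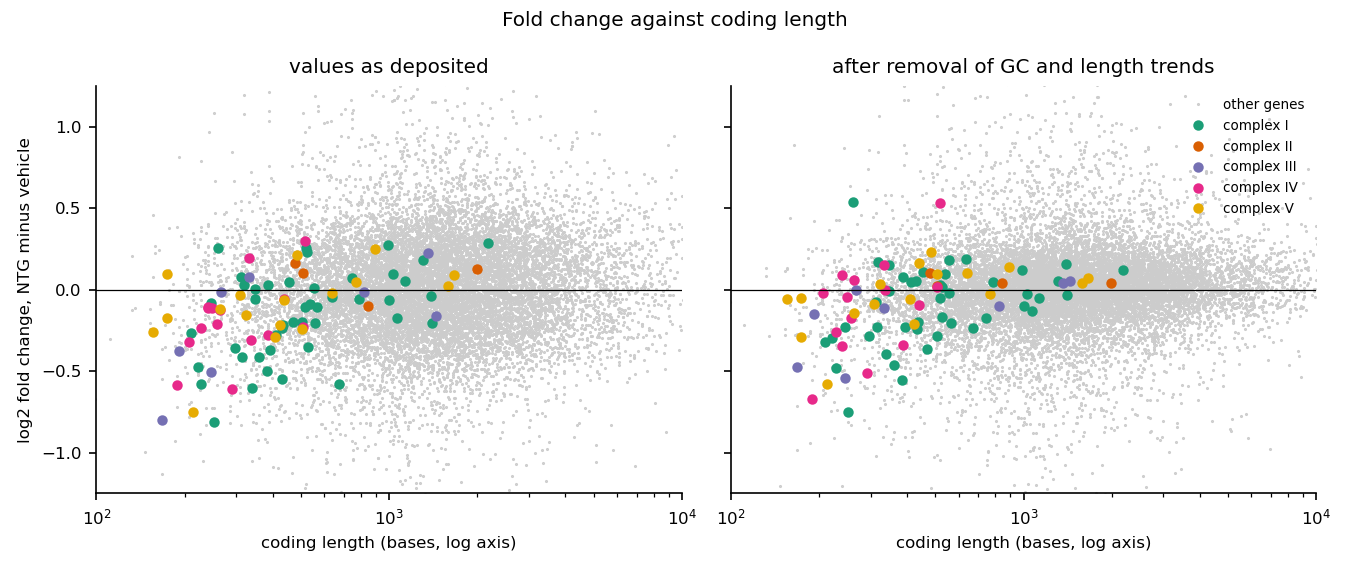
Log2 fold change (NTG minus vehicle) against coding length in bases (log axis) for members (all but 1 drawn) coloured by complex and for all other genes in grey, as deposited on the left and after removal of the GC and length trends on the right. Members of up to 300 coding bases have a median of -0.26 in both panels, and those beyond 450 bases lie around 0; genes outside the axes are not drawn.

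Of 45 other respiratory chain genes and assembly factors 9 fell and 4 rose (median 0.04). These shares were 20% and 8.89%, beside 13.5% and 12.3% of all genes. Once the trends were removed 6 fell and 2 rose (median -0.07), or 13.3% and 4.44%, beside 5.05% and 4.12% of all genes. The difference of this list from the members was not tested. Cox17, the copper chaperone of complex IV, went from 722 ± 38 to 501 ± 21 normalised reads (mean ± SD, n = 3; -0.53 ± 0.08, limma adjusted p = 0.000138). Atpif1, the inhibitor of ATP synthase run in reverse, went from 2810.4 ± 217 to 2206 ± 139 (-0.35 ± 0.07, limma adjusted p = 0.00067), and Cyc1, the cytochrome c1 of complex III, from 3139 ± 81.1 to 2588 ± 119 (-0.28 ± 0.06, limma adjusted p = 0.00129). The last of these was named after its values were seen. Lrpprc, which stabilises mitochondrial messenger RNAs, rose from 1745 ± 24.8 to 2247 ± 95.4 (0.36 ± 0.06, limma adjusted p = 0.000189). The values of these named genes are from before removal of the trends, after which 5 of the 9 falls and 1 of the 4 rises of this list remained.

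Of 17 genes of the citric acid cycle and pyruvate dehydrogenase, the pathway that feeds NADH to complex I, 5 rose and 0 fell (edgeR and DESeq2 0 falls, 1 fall at an unadjusted p under 0.05). The share that rose was 29.4%, while over all genes 12.3% rose and 13.5% fell. Dld, the dihydrolipoamide dehydrogenase shared by several matrix enzymes, had 1909, 1976 and 1952 normalised reads in vehicle and 2582, 2597 and 2493 in NTG. All NTG values were higher (0.39 ± 0.06, limma adjusted p = 6.35e-05). Pdha1, Sucla2, Idh3a and Pdhb rose by 0.28, 0.31, 0.23 and 0.18 on the log2 scale. None of the 5 passed once the trends were removed, with values of 0.12 for Dld and 0.13 for Pdha1, and 1 other gene of the list fell there.

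Among 18 regulators of mitochondrial biogenesis 3 fell and 1 rose (16.7% and 5.56%, beside 13.5% and 12.3% of all genes), so the share that fell was near the background. Esrra, the nuclear receptor that drives many respiratory genes, had 2324, 2506 and 2658 normalised reads in vehicle and 1770.4, 1869.6 and 2101 in NTG (-0.38 ± 0.07, limma adjusted p = 0.000434), and was at -0.03 after removal of the trends. Ppargc1b, a coactivator of Esrra, went from 684 ± 55.7 to 559 ± 25.6 (-0.29 ± 0.09, limma adjusted p = 0.018). Yy1, whose letters were searched above, went from 1998 ± 199 to 1691 ± 74.7 (-0.24 ± 0.07, limma adjusted p = 0.0188; -0.25 after removal, limma adjusted p = 0.0144). Mterf3, which acts on mitochondrial transcription, rose from 223 ± 36.8 to 294 ± 29.9 (0.41 ± 0.14, limma adjusted p = 0.032). Once the trends were removed Yy1 was the only call of this list, with Ppargc1b at -0.06 and Mterf3 at 0.17. The list held 1 fall without vehicle replicate 2 and 4 without vehicle replicate 1, and 0 rises without vehicle replicate 2 or 3 or any NTG replicate. Of 78 mitochondrial ribosomal protein genes 16 fell and 4 rose (median -0.04), led by Mrpl48 (2511 ± 174 to 1669.9 ± 53.4; -0.59 ± 0.06, limma adjusted p = 4.25e-06) and Mrps25 (1097 ± 67.3 to 1382 ± 105; 0.33 ± 0.07, limma adjusted p = 0.00225). The shares of these 78 genes that fell and rose were 20.5% and 5.13%, beside 13.5% and 12.3% of all genes. Falls in this list numbered 10 without NTG replicate 2, and rises 2 in that fit and in DESeq2. With the trends removed 8 fell and 0 rose, Mrpl48 at -0.75 and Mrps25 at 0.16 (limma adjusted p = 7.31e-08 and 0.145).

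Overlapping genes bear on these counts, since the sources used here do not give the strand setting. Of the 92 members 16 overlap a gene on the opposite strand and 4 a gene on the same strand. The members that overlap an opposite-strand gene at a higher level than their own were Ndufa4l2 and Cox4i2, and neither fell. Both are low genes that depth limits, so this says little about the falls. Atp5d fell and overlaps Cbarp, at 0.727 times its level, which also fell. The part of opposite-strand reads in the falls was not tested. Ndufb4b lies within Dock8 on the same strand, a gene at 10.5 times its level, and had 20.7, 36 and 47.4 normalised reads in vehicle and 22, 17.1 and 26 in NTG; reads could also be split between it and Ndufb4 where their sequences match. Ndufb4 itself had 1034, 932 and 1191 normalised reads in vehicle and 1002, 1144 and 1060.3 in NTG and did not pass (0.03 ± 0.09, limma adjusted p = 0.85).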

How the data were processed

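RNA of 6 trigeminal ganglion libraries was isolated with TRIzol, enriched for polyadenylated transcripts and sequenced in paired ends from strand-specific libraries, per the labels' protocols. The submitters' processing notes name FastQC, HISAT2 and the build GRCm38. The sources used here name neither the read counter, its strand mode and gene models nor the normalization method. The authors deposited 1 signal value per gene and library, a gene count divided by a size factor of the library. After division by the value of 1 read, 100% of values were whole within 0.01, so whole reads were recovered. Groups and replicate numbers came from the sample labels.

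Limma 3.58.1 (trend, robust) was fitted on log2(value + 1) for the 17475 genes that reached 1 normalised read in 3 or more libraries, two-sided, with Benjamini-Hochberg adjustment over all of them and a threshold of 0.05. Errors of fold changes are standard errors on that scale, which understates changes of low genes. Each library was then fitted on GC content and log2 length of the transcripts, and that smooth trend subtracted, with mgcv 1.9.3 for the genes with a matched GENCODE transcript (93.2%). Levels per kb used the same transcripts. Coordinates are those of the deposited table (GRCm38). Alternatives were other pseudocounts, filters and scalings, edgeR 4.0.16 and DESeq2 1.42.0 on the recovered reads, a test against a fold of 1.2, a fit with replicate number as block, and fits without 1 library. The quasi-likelihood test of edgeR called 2341 falls and 2317 rises. The scripts were tested on simulated data. No library was a duplicate of another: pairs within a group had a chi-square of 4.10 to 7.59 per degree of freedom, above sampling noise. R was 4.3.3 and Python 3.11.15.

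The members and gene lists were chosen with earlier results of these data known. Named members were, in each complex, the 3 with the smallest p among falls and among rises, all Sdh genes, the isoform sets, and the member highest per kb, and in each other list the smallest p in each direction. Members outside this rule were named after their values were seen, so that each role is covered. Counts and fits include 1 member that is not reported by name or drawn here.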

Additional observations from a re-analysis of the deposited data

How the results depend on the processing

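The members' calls stayed close in number under other pseudocounts, filters, TMM or upper-quartile scaling, edgeR (33 falls and 7 rises) and DESeq2 (34 and 7). With the replicate block more members passed in both directions, as given below. The median of all genes moved by less than 0.1 on the log2 scale under each scaling. Against a minimum fold of 1.2, 236 genes fell and 77 rose, and 9 members fell (5 of complex I, 2 of complex III, 1 each of complexes IV and V) while 0 rose in any complex, 0 of them at an unadjusted p under 0.05. After removal of the GC and length trends 822 genes fell and 670 rose, 1094 and 973 with the replicate block added. Members that rose then numbered 3, with 0 in complex III (also with the block) and complex IV and 1 in complex V, where 2 fell (3 with the block). Signs turned in 26 of 90 members after removal of the trends, with and without the block, of which 4 had fallen before (Ndufb7, Ndufa11, Cox4i1 and Atp5d) and 0 had risen. Those named by the fixed rule were Atp5d 0.10, Atp5g2 0.16, Cox4i1 0.016, Cox6b2 0.061, Cox7a1 0.088 and Sdhb 0.039. The cause was not tested. Sdha passed, as the 1 rise of complex II, under TMM, upper-quartile scaling, edgeR and DESeq2.

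With each library left out in turn, falls ranged from 1620 to 2422 over all genes and from 27 to 35 over the members, and rises from 1326 to 2256 and from 3 to 6, the lowest rises without NTG replicate 2. Rises ranged from 1 to 2 in complexes I and V and from 0 to 1 in complexes II, III and IV. The low gene Cox4i2 ranged from -0.058 (without vehicle replicate 2) to 0.81, and Ndufa4l2 from -0.19 (without the same library) to 0.65. Same-numbered libraries did not deviate together (correlations of 0.00, -0.03 and -0.02), so no pairing was visible. The labels do not say that the replicate numbers pair the libraries, and these correlations cannot exclude it. With the number as a block 2773 genes fell and 2481 rose, 37 and 8 among the members, including 2 rises in complex II. Depth limits the lowest members, such as Cox6a2, Cox4i2, Ndufa4l2, Cox7a1 and Ndufb4b.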

Other observations

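Cytosolic ribosomal proteins, many of them encoded by short genes, moved in both directions. Of 82 cytosolic ribosomal protein genes 21 fell and 8 rose (median -0.04, median coding length 453 bases). These shares were 25.6% and 9.76%, beside 13.5% and 12.3% of all genes. Rps29, a zinc-binding protein of the small ribosomal subunit with 168 coding bases, had 2396, 2279.9 and 2513 normalised reads in vehicle and 1174, 959 and 1159 in NTG (-1.13 ± 0.08, limma adjusted p = 2.02e-08; -0.99 after removal of the GC and length trends). All NTG values were less than the lowest vehicle value. Rps6, the phosphorylated protein of the small subunit with 747 coding bases, had 4166, 4072 and 4127 normalised reads in vehicle and 4905, 5009 and 5074 in NTG (0.28 ± 0.05, limma adjusted p = 0.000497; 0.25 after removal). Both were the strongest calls of the list in their direction.

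Proteasome subunits, whose genes are longer (median coding length 829.5 bases), had 8 falls and 5 rises among 38 (median 0.02). These shares were 21.1% and 13.2%, beside 13.5% and 12.3% of all genes. Without NTG replicate 1 the falls numbered 4, and without vehicle replicate 2 or NTG replicate 2 they numbered 5 and the rises 3. The rises numbered 8 without vehicle replicate 3. Once the trends were removed 3 of the falls and 0 of the 5 rises remained, while 2 other subunits rose. Psmb4, a beta ring subunit, had 3857, 3719.8 and 3797 normalised reads in vehicle and 3132, 3113 and 3339 in NTG (-0.25 ± 0.06, limma adjusted p = 0.00229), and Psmc6, an ATPase of the cap, had 1495, 1329.8 and 1586 normalised reads in vehicle and 1857, 2027 and 1828 in NTG (0.38 ± 0.07, limma adjusted p = 0.000655; 0.00 after removal). Psmb9, an immunoproteasome subunit named after its values were seen, went from 138 ± 34.9 to 75.1 ± 13.2 normalised reads (mean ± SD, n = 3; -0.86 ± 0.21, limma adjusted p = 0.00454).

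Pet117, an assembly factor of complex IV with 240 coding bases, had 82.8, 65.9 and 67.2 normalised reads in vehicle and 33.5, 19.2 and 26.9 in NTG (-1.43 ± 0.28, limma adjusted p = 0.000807; -1.20 after removal, limma adjusted p = 0.00781). Its log2 fold change was the lowest of the 45 other respiratory chain genes and assembly factors, and it too was named after its values were seen.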
